A study of Rattus norvegicus with 4 samples.

Results

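Transcripts of interleukin 33 (IL-33) and its relatives in the interleukin 1 (IL-1) family were read from RNA-seq libraries of HSC-T6, a rat hepatic stellate cell line that grows indefinitely in culture. The 7 genes described were taken by symbol from the deposited count table, which lists 32883 genes, and each symbol stood on 1 row. They comprise the ligands Il33, Il1a, Il1b and Il18 and the receptor chains Il1rl1, Il1r1 and Il1rap. The Rk1 group held 2 libraries of HSC-T6 cells given the agent labelled GRK1, which the series title names as ginsenoside RK1, a saponin of ginseng. The other group held 2 libraries of HSC-T6 cells with no treatment. Dose, duration and vehicle are not in the labels, so treated cells were set against untreated cells of the same line. A cell line is a single population kept in culture without the other cells of the liver, and no label states whether replicate libraries were grown as separate cultures. P-values thus reflect the variation among the 4 libraries alone, part or all of which could be technical. The genes were chosen with their difference between Rk1 and untreated cells already known, Il33 having been among the largest falls, so their values are given as a description without a test.

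IL-33 is an alarmin, a cytokine held in the nucleus and released when a cell is damaged. It binds a receptor made of ST2, the product of Il1rl1, and a shared second chain encoded by Il1rap. IL-1 alpha and IL-1 beta use the same second chain with a different first chain, encoded by Il1r1, and IL-18 has receptor chains of its own. All these receptors signal through the adaptor MyD88 and IRAK kinases to NF-kB and stress kinases. In fibrotic liver of mice and humans, activated stellate cells have been described as one source of IL-33.

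The sequences just upstream of the transcription starts of Il33, Il1rl1 and Il1r1 are shown because these 3 genes had the lowest, the next lowest and the highest log2 fold change among the members. Each is the 250 bases before an annotated start from RefSeq on build GRCr8, plus strand, written 5′ to 3′. Il33 has 2 annotated starts, 19373 bases apart, with windows at chr1:237115323-237115572 and chr1:237134696-237134945. The Il1rl1 window lies at chr9:50203388-50203637 and the Il1r1 window at chr9:50034133-50034382. Capitals mark the letters GGAATG, or CATTCC where they lie on the opposite strand, a core motif of TEAD transcription factors.
Il33 upstream of the first start: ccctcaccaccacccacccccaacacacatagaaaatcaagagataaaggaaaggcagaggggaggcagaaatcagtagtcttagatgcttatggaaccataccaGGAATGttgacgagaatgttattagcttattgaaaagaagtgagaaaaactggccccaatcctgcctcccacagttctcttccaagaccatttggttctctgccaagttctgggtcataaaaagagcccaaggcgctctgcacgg
Il33 upstream of the second start: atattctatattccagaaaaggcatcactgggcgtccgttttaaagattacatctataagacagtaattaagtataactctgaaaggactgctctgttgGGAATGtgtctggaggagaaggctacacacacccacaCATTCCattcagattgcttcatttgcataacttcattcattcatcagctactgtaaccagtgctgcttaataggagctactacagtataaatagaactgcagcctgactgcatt
Il1rl1 upstream: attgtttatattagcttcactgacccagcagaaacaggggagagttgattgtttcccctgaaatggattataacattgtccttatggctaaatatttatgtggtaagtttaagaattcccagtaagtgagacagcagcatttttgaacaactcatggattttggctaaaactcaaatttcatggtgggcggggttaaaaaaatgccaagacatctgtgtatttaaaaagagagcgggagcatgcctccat
Il1r1 upstream: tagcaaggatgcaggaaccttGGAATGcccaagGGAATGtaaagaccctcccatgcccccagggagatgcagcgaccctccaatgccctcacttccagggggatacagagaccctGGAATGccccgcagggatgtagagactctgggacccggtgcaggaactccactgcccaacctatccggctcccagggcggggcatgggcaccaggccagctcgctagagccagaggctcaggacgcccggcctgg

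The TEAD letters stood in both Il33 windows, at 145 bases before the first start, and at 151 and 114 bases before the second. They also stood in the Il1r1 window at 229, 217 and 135 bases before the start, and nowhere in the Il1rl1 window. Il33 was lower and Il1r1 higher in Rk1 cells, and any part of this motif in either difference was not tested. Of all 33469 windows of the same length in the table, 12.1% held it. All 7 members had an entry, with 9 windows in all, and 5 further motifs were searched in them on both strands. The NF-kB consensus stood in the Il1r1 window, where it overlaps the nearest TEAD match, and in both Il1rap windows, against 6.33% of all windows. The Il1rap windows overlap each other and hold the same site, so it is not an independent match in each. AP-1 (TGANTCA) stood in the Il1a window only, against 6.34% of all windows. The STAT letters TTCNNNGAA (7.67% of all windows), the hypoxia element ACGTG (16.6%) and the E-box CACGTG (5.59%) were in 0 of the 9 windows. A match is a run of letters and not a measured binding site.

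Libraries held 18008586 and 18125005 counts on genes with Rk1 and 20430930 and 18175053 counts untreated, and 12316 genes were abundant enough to be tested. In edgeR's quasi-likelihood test, 22.0% of them passed an adjusted p of 0.05, 11.5% higher and 10.5% lower in Rk1 cells. The groups did not overlap for 30.9% of tested genes with Rk1 lower and 32.1% with Rk1 higher. A lack of overlap was therefore common with 2 libraries per group. Stellate cell markers were mixed: the collagen genes Col1a1 and Col3a1 and the filament gene Vim were abundant in all 4 libraries, and Lhx2 stood at 19.6 to 20.5 CPM (the usual depth-scaled count, each library total adjusted by TMM) with Rk1 and 20.5 to 21.6 CPM untreated. Acta2, the usual marker of activated stellate cells, had only 16 and 6 counts with Rk1 and 73 and 56 untreated. Gfap had 22 and 12 with Rk1 and 80 and 55 untreated, and Thy1 had 0 to 2. Lrat, a marker of quiescent stellate cells, and Reln had 0 counts in all 4 libraries. Of 18 stellate cell markers, 16 had a count, 0 of the 12 tested rose and 6 fell, and their summed level was 12113 and 12018 CPM with Rk1, against 19018 and 17971 CPM untreated. Col1a1 stood at 8012 CPM with Rk1 and 12043 CPM untreated, and Col3a1 at 2626 CPM with Rk1 and 4842 CPM untreated. These collagen genes made up most of the summed level and of its difference. The 6 that fell had log2 fold changes of -2.84 (Tagln), -2.44 (Acta2), -1.88 (Gfap), -1.04 (Col6a1), -0.88 (Col3a1) and -0.59 (Col1a1). The 6 that did not pass were Des (0.37), Ngfr (0.32), Lhx2 (-0.07), Vim (-0.08), Pdgfra (-0.12) and Pdgfrb (-0.31). Immune markers matter here because Il1rl1 is also a gene of mast cells and lymphocytes. Of 9 macrophage markers 5 had 0 counts, Ptprc and Adgre1 among them, and their summed level was 1.7 to 2.11 CPM with Rk1 and 1.33 to 1.87 CPM untreated. The 10 lymphoid and mast cell markers summed to 87 to 92.3 CPM with Rk1 and 91.1 to 95.3 CPM untreated. Nearly all of this was Ncam1 and Gata3, while Cd3d, Il7r, Nkg7 and Cpa3 had 0 counts. Kit had 4 and 8 counts with Rk1 and 6 and 5 untreated, and Hdc 3 and 8 with Rk1 and 7 and 6 untreated. Cd3e had 0 and 0 with Rk1 and 2 and 2 untreated, and Cd79a 0 and 2 with Rk1 and 2 and 1 untreated. Endothelial and hepatocyte markers each summed to under 1 CPM in every library. The 6 cholangiocyte markers summed to 1285 to 1293 CPM with Rk1 and 1706 to 1719 CPM untreated, almost all Spp1, while Epcam had 0 or 1 count per library. The 2 tested both fell, Spp1 by 0.41 ± 0.03 on the log2 scale (adjusted p = 3.2e-04) and Sox9 by 1.74 ± 0.17 (adjusted p = 6.7e-04). In a bulk library, fewer cells that express a gene and less RNA per cell cannot be told apart.

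Il33 showed the largest difference among the 7 members. The gene (ENSRNOG00000016456) lies on chromosome 1 at 248132090 to 248147029 of Rnor_6.0, plus strand, with 2446 bases of exon and no overlapping gene in the table. It had 96 and 107 counts in the Rk1 libraries, against 928 and 852 counts in the untreated libraries. On the scaled level this was 5.34 and 5.87 CPM in Rk1 cells, against 45.7 and 46.8 CPM in untreated cells. The groups lay far apart, and the libraries of each group lay close together. The mean was 5.6 ± 0.37 CPM with Rk1 and 46.2 ± 0.79 CPM untreated (SD, n = 2 each), and the log2 fold change was -3.04 ± 0.08 (SE), an 8.24-fold lower level. In order of log2 fold change, Il33 stood 16th from the largest fall among the 12316 tested genes. Per kilobase of exon, untreated Il33 exceeded 58.5% of the tested genes, and the Rk1 level exceeded 15.2% of them in Rk1 cells. The summed stellate cell markers given above, mostly Col1a1 and Col3a1, were also lower in both Rk1 libraries. Of the 12 markers tested singly, 6 fell, with log2 fold changes from -2.84 (Tagln) to -0.59 (Col1a1), and 6 did not pass. Any part of these markers in the Il33 difference was not tested.

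The other 3 ligands were at or near the limit of detection. Il1a (chromosome 3, 121825412 to 121836086, minus strand) and Il1b (chromosome 3, 121876263 to 121882726, minus strand), the ligands of Il1r1, had 0 counts in all 4 libraries. A count of 0 in a library was taken to allow up to 3 counts. That is 0.167 and 0.165 CPM in the Rk1 libraries and 0.148 and 0.165 CPM in the untreated libraries. For the pooled 0 counts of each group, the 95% exact Poisson interval runs up to 3.69 counts. No difference was thus detectable at this depth. These limits cover counting error only. Il18 (chromosome 8, 54993859 to 55016299, plus strand), a cytokine that inflammatory caspases cut into its active form, had 25 and 35 counts with Rk1, against 54 and 43 counts untreated. The pooled 60 counts with Rk1 have a 95% exact Poisson interval of 45.8 to 77.2, and the 97 counts untreated one of 78.7 to 118. The levels were 1.39 and 1.92 CPM with Rk1 and 2.66 and 2.36 CPM untreated, with a log2 fold change of -0.60 ± 0.25 that did not pass the threshold. The groups did not overlap, but the Rk1 libraries differed from each other by about as much as their upper value differed from the untreated ones. Bco2 and Tex12 overlap Il18 on the opposite strand, and Bco2 had 31 and 30 counts with Rk1 and 58 and 46 counts untreated. Without a stated strand setting, reads of the 3 genes cannot be told apart where they overlap.

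Among the receptor chains, the one specific to IL-33 was lower in Rk1 cells, the one specific to IL-1 was higher, and the shared chain showed the smallest difference of the 5 tested members. Il1rl1 (ENSRNOG00000014835; chromosome 9, 47134034 to 47182170, plus strand) had 63 and 85 counts with Rk1, against 242 and 194 counts untreated. That is 3.5 and 4.66 CPM in Rk1 cells and 11.9 and 10.7 CPM in untreated cells, means of 4.08 ± 0.82 and 11.3 ± 0.89 CPM (SD, n = 2 each), with no overlap. Rk1 was lower without overlap in 30.9% of all tested genes. The log2 fold change was -1.47 ± 0.16, a 2.76-fold lower level. Rodent Il1rl1 gives a membrane form and a shorter secreted form of ST2 that binds IL-33 away from the cell, and counts summed over the gene do not separate them.

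Il1r1 (ENSRNOG00000014504; chromosome 9, 46962288 to 47036670, plus strand), the signalling receptor of IL-1, had 960 and 1039 counts with Rk1, against 891 and 783 counts untreated. Its level was 53.4 and 57 CPM in Rk1 cells and 43.9 and 43 CPM in untreated cells, and the groups did not overlap. Rk1 was higher without overlap in 32.1% of all tested genes. The log2 fold change was 0.35 ± 0.05, a 1.27-fold higher level. Il1rap (ENSRNOG00000001928; chromosome 11, 77463954 to 77593207, minus strand), the chain shared by the IL-1 and IL-33 receptors, had 353 and 358 counts with Rk1, against 400 and 338 counts untreated. Both Rk1 libraries were at 19.6 CPM and the untreated libraries at 19.7 and 18.6 CPM. The groups overlapped, with a log2 fold change of 0.04 ± 0.08. Of the 7 members, 5 passed the filter on low counts and entered the fit, which placed 2 lower and 1 higher at an adjusted p of 0.05, beside 10.5% lower and 11.5% higher over all tested genes. The members were chosen on this comparison, so that count is no test of them and nothing is read from it.

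**Figure D1:**
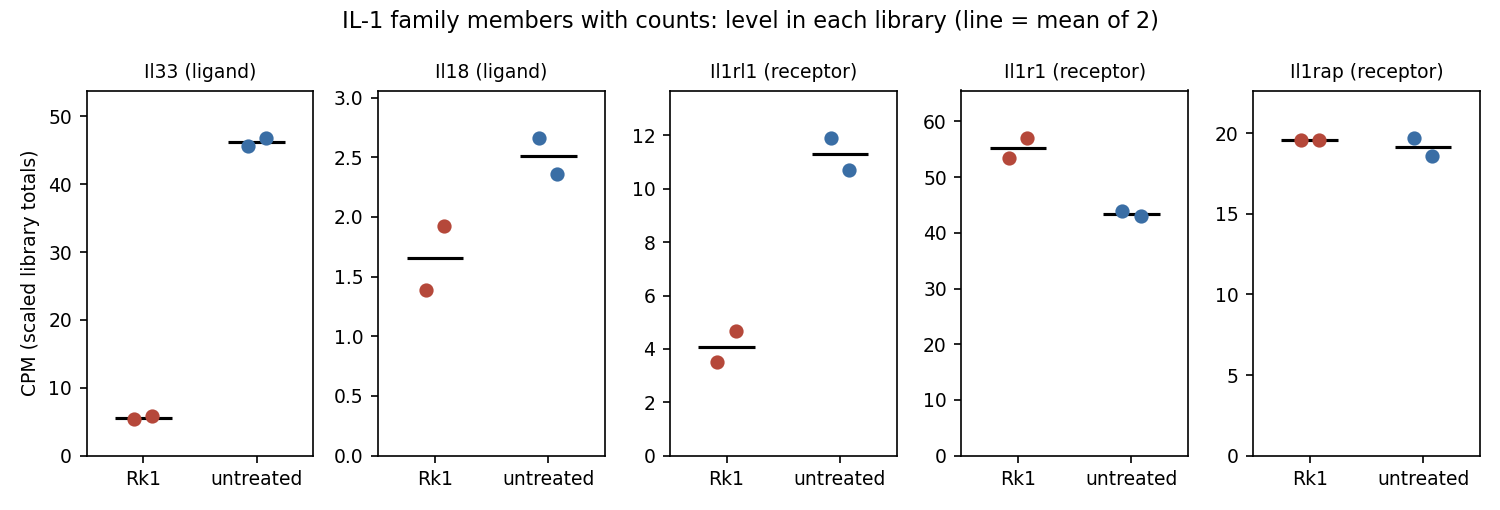
Level of the 5 members with counts in each library, in CPM on axes that start at 0, with Rk1 on the left and untreated on the right of each panel. Points are libraries and lines the means of 2: Il33 sits at 5.34 and 5.87 CPM with Rk1 and at 45.7 and 46.8 CPM untreated, Il1rl1 is also lower with Rk1, Il1r1 is higher, and the Il1rap groups overlap.

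Levels of different genes were compared only per kilobase of exon. In Rk1 cells the order of the detected members was Il1r1 at 16 ± 0.73 CPM per kilobase, Il1rap at 6.94 ± 0.0017, Il33 at 2.29 ± 0.15, Il1rl1 at 1.98 ± 0.4 and Il18 at 1.64 ± 0.37 (mean ± SD, n = 2). Neighbours among the last 3 overlapped, Il33 with Il1rl1 and Il1rl1 with Il18, while both Il33 values lay above both Il18 values: Il33 had 2.18 and 2.4, Il1rl1 1.7 and 2.26 and Il18 1.38 and 1.91 CPM per kilobase in the 2 Rk1 libraries. In untreated cells Il33 came first at 18.9 ± 0.32 CPM per kilobase, followed by Il1r1 at 12.6 ± 0.18, Il1rap at 6.76 ± 0.28, Il1rl1 at 5.47 ± 0.43 and Il18 at 2.49 ± 0.21. In that order no neighbouring pair overlapped over the 2 untreated libraries. Il33 thus stood first of the 5 in untreated cells and behind Il1r1 and Il1rap in Rk1 cells. The order rests on a single exon length per gene, and transcript forms of other lengths were not told apart.

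Within each library, the ratio of Il33 to each receptor chain was formed from CPM per kilobase. Il33 over Il1rl1, its own receptor chain, was 1.29 and 1.06 in the Rk1 libraries and 3.24 and 3.71 in the untreated libraries. The ligand differed more than its receptor chain, and this ratio was lower by 1.57 on the log2 scale (difference -1.57) in Rk1 cells. Il33 over Il1rap was 0.314 and 0.346 with Rk1 and 2.68 and 2.91 untreated, so Il33 was below this chain in both Rk1 libraries and above it in both untreated ones. Il33 over Il1r1 gave 0.141 and 0.145 with Rk1 and 1.47 and 1.53 untreated. Between the 2 first chains, Il1r1 over Il1rl1 was 9.14 and 7.33 with Rk1, against 2.21 and 2.42 untreated, a log2 difference of 1.82. These ratios rest on the same exon lengths, combine the values that chose the members and carry no test.

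**Figure D2:**
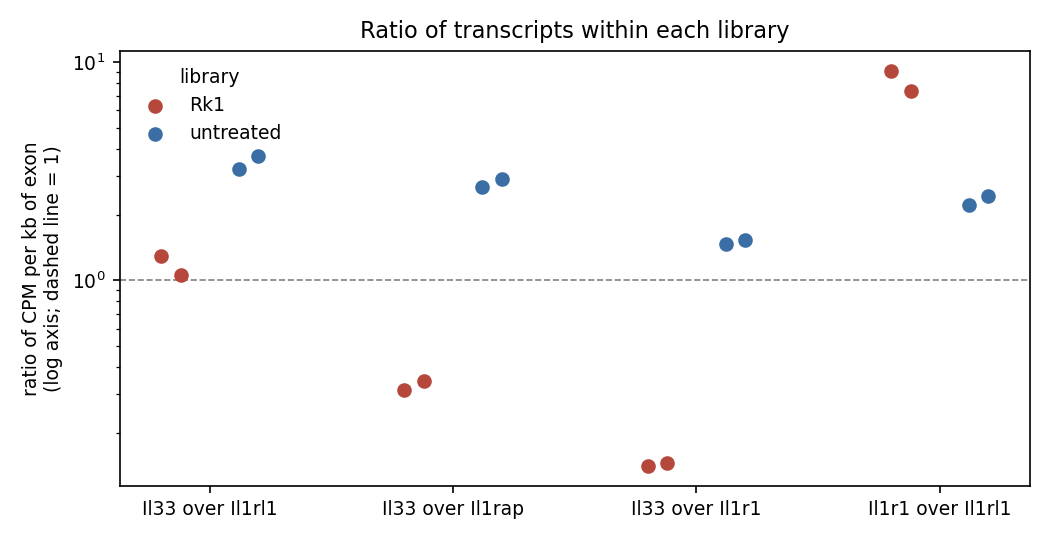
Ratio of 2 transcripts within a library, each in CPM per kilobase of exon, on a log axis with a dashed line at 1. Points are libraries, with Rk1 left of untreated for each pair: Il33 lies below Il1rap and Il1r1 in both Rk1 libraries and above them in both untreated libraries, and Il1r1 over Il1rl1 is 9.14 and 7.33 with Rk1 against 2.21 and 2.42 untreated.

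Most other ligands and soluble binders of the family were barely detected, and the one that passed the test fell. Il1rn, which encodes the receptor antagonist that occupies Il1r1 without signalling, had 14 and 21 counts with Rk1, against 80 and 64 counts untreated. It fell to 0.965 ± 0.26 CPM in Rk1 cells, against 3.73 ± 0.3 CPM in untreated cells, a 3.84-fold fall (log2 fold change -1.94 ± 0.26, adjusted p = 0.0024). Both Rk1 libraries were below both untreated libraries, as in 30.9% of all tested genes. Il18bp, the secreted binder of IL-18, had 10.2 and 10.3 CPM with Rk1 and 12.8 and 11.7 CPM untreated and did not pass (adjusted p = 0.12). Il36b, a ligand of the IL-36 group, had 2 and 5 counts with Rk1 and 12 and 10 untreated, too few to be tested, and Il36g had 2 and 2 with Rk1 and 3 and 1 untreated. Il36rn, Il36a and Il1f10 had 0 counts in all libraries.

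The remaining receptor chains stood at low levels, and neither of the 2 that could be tested passed. Il18rap, the second chain of the IL-18 receptor, had 56 and 67 counts with Rk1 and 65 and 61 untreated (log2 fold change 0.05 ± 0.19, adjusted p = 0.88). Il18r1, the first chain, had 17 and 12 counts with Rk1 and 12 and 14 untreated (0.24 ± 0.38, adjusted p = 0.70). Sigirr, an inhibitory member of the family, had 4 and 4 counts with Rk1 and 9 and 4 untreated. The decoy receptor Il1r2 had 0 and 2 counts with Rk1 and 1 and 0 untreated, the IL-36 receptor chain Il1rl2 0 and 1 with Rk1 and 4 and 0 untreated, and Il1rapl2 0 and 0 with Rk1 and 1 and 1 untreated. Il1rapl1 had 0 counts in all libraries.

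Most transcripts of the relay from the receptors to NF-kB were detected, and few passed the test. Of 30 genes listed for the MyD88 relay, 29 were matched by symbol, Peli2, a ubiquitin ligase of the Pellino family, had 0 counts in all libraries, and the other 28 were tested, of which 3 rose and 0 fell, beside 11.5% higher and 10.5% lower over all tested genes. The median log2 fold change was 0.10, against 0.00 over all tested genes. Tollip, an adaptor that restrains IRAK kinases, rose to 90.5 ± 0.99 CPM with Rk1, against 71.3 ± 2.7 CPM untreated (0.34 ± 0.05, adjusted p = 0.0030). Sqstm1, the p62 scaffold that binds TRAF6 and also serves autophagy, rose to 592 ± 12 CPM with Rk1, against 412 ± 13 CPM untreated (0.52 ± 0.04, adjusted p = 3.0e-04). Map3k7, which encodes the kinase TAK1, had 244 and 259 counts with Rk1 and 52 and 18 untreated (2.94 ± 0.32, adjusted p = 9.3e-04). Without untreated replicate 1 its log2 fold change was 3.8, and without untreated replicate 2 it was 2.43. Its value is also uncertain because a second row described as Map3k7-like had 38 and 42 counts with Rk1 and 67 and 47 untreated, and near-identical copies can divide reads. The 2 rows together held 15.7 and 16.5 CPM with Rk1 and 5.86 and 3.57 CPM untreated. The other 25, among them Myd88 (0.15 ± 0.05, adjusted p = 0.075), Irak1 (0.07 ± 0.05, adjusted p = 0.35) and Traf6 (0.19 ± 0.08, adjusted p = 0.15), lay between -0.29 and 0.40 and did not pass. With robust dispersions 5 rose.

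Genes that process or release family cytokines were called about as often as tested genes in general. Of 27 listed, 19 were tested, of which 2 rose and 2 fell, beside 11.5% higher and 10.5% lower over all tested genes, with a median log2 fold change of 0.06. Aim2, a DNA sensor that can start an inflammasome, fell to 14.7 and 23.1 CPM with Rk1, against 38 and 30.6 CPM untreated (-0.86 ± 0.19, adjusted p = 0.019), and was not called by DESeq2 (adjusted p = 0.088) or with robust dispersions (0.21). Mlkl, the executor of necroptosis, fell by 0.19 ± 0.06 on the log2 scale (adjusted p = 0.045), a call lost by DESeq2 (0.11) and without Rk1 replicate 1 (0.18), Rk1 replicate 2 (0.062) or untreated replicate 1 (0.22). S100a13, which takes part in the release of IL-1 alpha, rose by 0.46 ± 0.10 (adjusted p = 0.020), and Ninj1, which ruptures the membrane of dying cells, by 0.28 ± 0.06 (adjusted p = 0.015). Neither was called without Rk1 replicate 1 (adjusted p = 0.11 for S100a13 and 0.053 for Ninj1) or untreated replicate 2 (0.063 and 0.068), and S100a13 was not called by DESeq2 (0.082). Casp1, the caspase that cuts IL-1 beta and IL-18, had 448 and 589 counts with Rk1 and 750 and 657 untreated and did not pass (-0.35 ± 0.11, adjusted p = 0.063). The inflammasome gene Nlrp3 had 5 and 5 counts with Rk1 and 13 and 6 untreated. The neutrophil and mast cell proteases that can cut IL-33, Elane, Ctsg, Prtn3 and Mcpt1, had 0 counts in all libraries. By DESeq2 0 of the list fell and 1 rose, 4 fell with the stricter count filter, 1 fell without Rk1 replicate 1 or untreated replicate 1, and 1 rose without Rk1 replicate 1 or untreated replicate 2.

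Transcripts that IL-1 is known to induce in fibroblasts included more that fell than rose. Of 30 listed, 24 were tested, of which 6 fell and 1 rose, beside 10.5% lower and 11.5% higher over all tested genes, with a median log2 fold change of -0.27. Vcam1, an adhesion molecule for leukocytes, fell to 1.06 and 2.3 CPM with Rk1, against 6.99 and 4.5 CPM untreated (-1.77 ± 0.36, adjusted p = 0.013). Its log2 fold change was -2.44 without Rk1 replicate 2 and -1.32 without Rk1 replicate 1. It was -1.42 without untreated replicate 1, where Vcam1 was not called. The chemokine Ccl7 fell to 31.3 and 53.6 CPM with Rk1, against 85 and 81.8 CPM untreated (-0.97 ± 0.19, adjusted p = 0.012), and was not called by DESeq2 (0.066) or with robust dispersions (0.22). Cxcl3, a neutrophil chemokine, fell by 0.70 ± 0.14 (adjusted p = 0.012). Csf1, the macrophage growth factor, fell by 0.32 ± 0.07 (adjusted p = 0.016) but was not called without Rk1 replicate 2 (0.058). Tnfaip6, a hyaluronan-binding protein, fell by 0.32 ± 0.09 (adjusted p = 0.040) but was not called by DESeq2 or without Rk1 replicate 1, untreated replicate 1 or untreated replicate 2. Sod2, the mitochondrial superoxide dismutase, fell by 0.24 ± 0.05 (adjusted p = 0.011) but was not called without Rk1 replicate 1 (0.053) or untreated replicate 1 (0.052). The gene that rose was Nfkbia, which encodes the inhibitor that holds NF-kB in the cytoplasm, at 54.8 and 57.4 CPM with Rk1 and 41.3 and 34.8 CPM untreated (0.56 ± 0.08, adjusted p = 0.0034). Il6 had 5 and 10 counts with Rk1 and 9 and 12 untreated (adjusted p = 0.62), and Cxcl1 (-0.15 ± 0.14, adjusted p = 0.47), Ccl2 (-0.11 ± 0.08, adjusted p = 0.36) and Ptgs2 (0.17 ± 0.14, adjusted p = 0.43) did not pass either. Only 3 of the list fell without untreated replicate 1.

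Of 20 listed alarmins and type 2 signals outside the family, 19 were matched and 8 tested, of which 0 rose and 2 fell, beside 11.5% higher and 10.5% lower over all tested genes. Hspd1, a mitochondrial chaperone that acts as a danger signal outside the cell, fell by 0.18 ± 0.04 (adjusted p = 0.016), and Anxa1, a mediator that limits inflammation, by 0.15 ± 0.04 (adjusted p = 0.044). Neither was called without Rk1 replicate 1 (adjusted p = 0.074 for Hspd1 and 0.054 for Anxa1), untreated replicate 1 (0.073 and 0.18) or untreated replicate 2 (0.064 and 0.095), and Anxa1 was not called without Rk1 replicate 2 (0.19) or without a count filter (0.060). Hmgb1, a nuclear alarmin like Il33, was read from a row with 193 and 199 counts with Rk1 and 256 and 205 untreated (-0.14 ± 0.11, adjusted p = 0.39). The 2221 exon bases of that row fill its whole span on chromosome 16 (37500017 to 37502237), so it holds no intron. Whether it is the gene itself or an intronless copy was not tested. Tslp, which with IL-33 starts type 2 immunity at epithelia, had 19 and 9 counts with Rk1 and 23 and 10 untreated. The type 2 cytokines Il4 and Il13 had 0 counts in all libraries, and Il5 had 0 in both Rk1 libraries and 1 and 0 untreated.

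**Figure D3:**
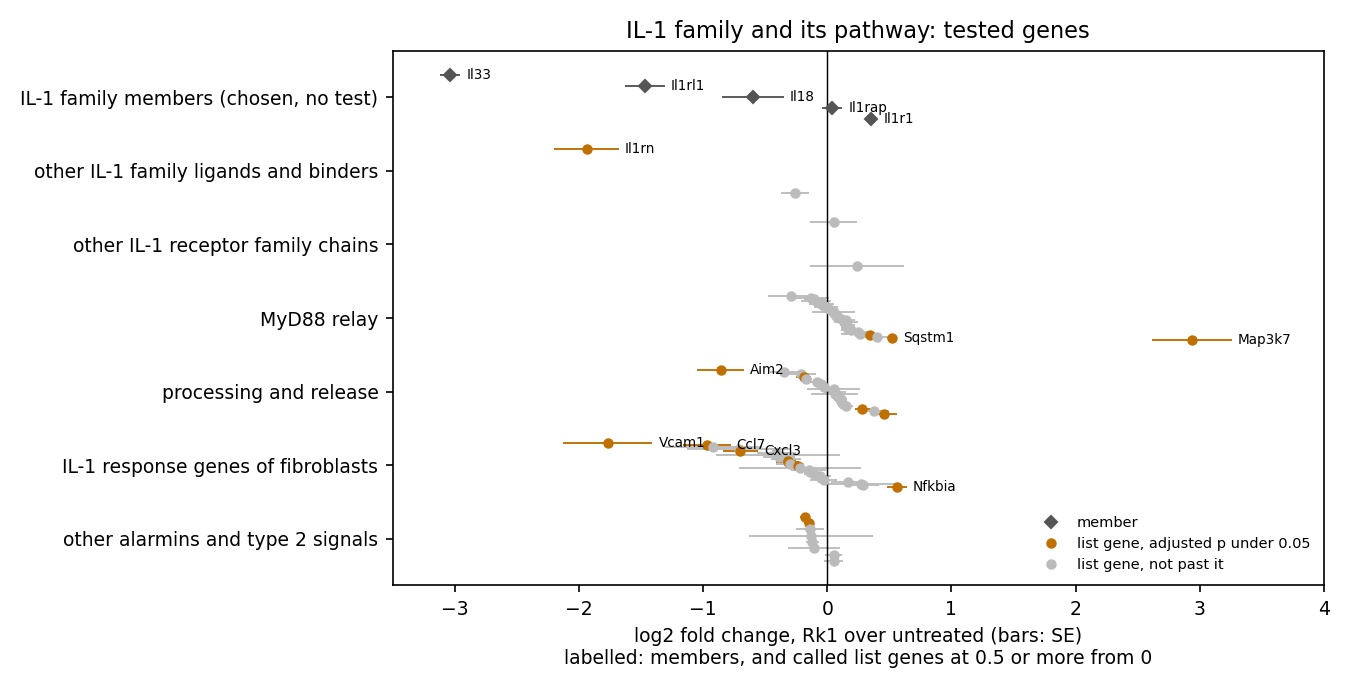
Log2 fold change of Rk1 over untreated with its SE for every tested gene of the family and of 6 lists, members as diamonds, list genes past an adjusted p of 0.05 in orange and the others in grey. Il33, Il1rn, Vcam1 and Il1rl1 lie furthest to the left, and apart from Map3k7, whose value is uncertain, no listed gene exceeds 0.56.

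Genes near Il33 on chromosome 1 did not pass the test. Of the 12 tested genes whose start lies within 1 Mb of that of Il33, 0 rose and 0 fell, with log2 fold changes of -0.80 to 0.12. Over all tested genes the shares were 11.5% higher and 10.5% lower, so few calls would stand among 12 genes in any case. The nearest on one side, Ranbp6, an importin relative, had 20.5 and 21.8 CPM with Rk1 and 20.9 and 22.2 CPM untreated (-0.03 ± 0.08, adjusted p = 0.85). Nearest on the other side was the unnamed gene AABR07006688.2, with 14 and 15 counts with Rk1 and 31 and 23 untreated (-0.80 ± 0.29, adjusted p = 0.096), followed by Uhrf2, a reader of modified DNA (-0.11 ± 0.06, adjusted p = 0.21). Cd274, the immune checkpoint ligand PD-L1, had 47 and 65 counts with Rk1 and 124 and 71 untreated (-0.70 ± 0.26, adjusted p = 0.10). Jak2, a cytokine receptor kinase, lay in the same window (-0.10 ± 0.05, adjusted p = 0.24).

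The receptor genes of the family sit side by side on chromosome 9, in the order Il1r2, Il1r1, Il1rl2, Il1rl1, Il18r1 and Il18rap, all on the plus strand. The start of Il1r1 lies 172 kb before that of Il1rl1, and these neighbours differed in opposite directions, 0.35 ± 0.05 for Il1r1 and -1.47 ± 0.16 for Il1rl1. Of 7 other tested genes within 1 Mb of Il1rl1, only Rnf149, a ubiquitin ligase, passed, at 35.3 and 35.4 CPM with Rk1 and 28 CPM in both untreated libraries (0.34 ± 0.06, adjusted p = 0.0072). Over all tested genes 22.0% passed. Il18r1, whose start lies 51.4 kb after that of Il1rl1, and Il18rap beyond it did not pass.

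**Figure D4:**
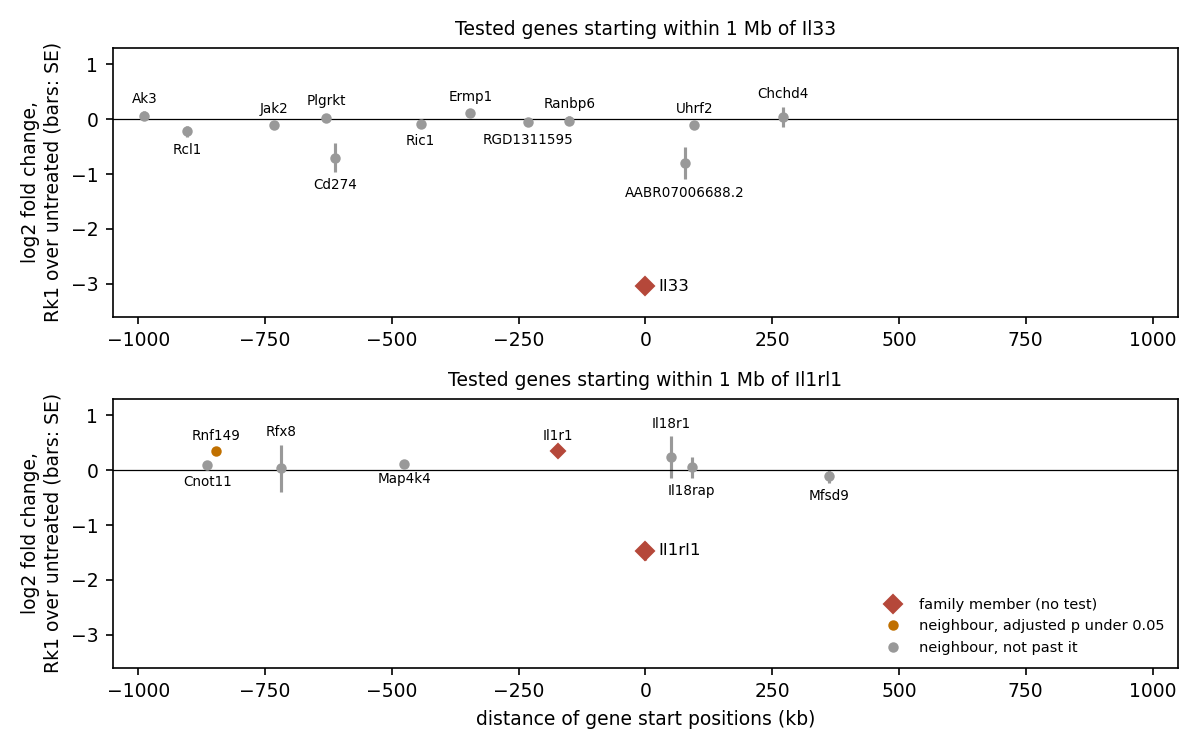
Log2 fold change of Rk1 over untreated with its SE, plotted against the distance between gene starts in kb, for tested genes within 1 Mb of Il33 (top) and Il1rl1 (bottom). Red diamonds are family members without a test, orange points neighbours past an adjusted p of 0.05 and grey points the others: all 12 neighbours of Il33 lie between -0.80 and 0.12, far above Il33 at -3.04.

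The genes with the profile most like that of Il33 were sought by the Euclidean distance of log2 CPM over the 4 libraries, centred on each gene's mean, among 9472 named genes averaging 5 CPM or more. The nearest was Tagln, an actin-binding protein of smooth muscle and myofibroblasts, at a distance of 0.25, with 2.35 ± 0.015 CPM with Rk1 and 16.9 ± 0.35 CPM untreated. Next came Ccn2, connective tissue growth factor, at 0.41, with 2.32 ± 0.26 CPM with Rk1 and 15.6 ± 0.10 CPM untreated. The interferon-inducible GTPases Gbp1 (distance 1.0) and Mx1 (1.16), the nucleotidase Nt5c1b (1.21) and the collagen Col14a1 (1.24) followed at a wider gap. In Gbp1 and Mx1 the libraries of a group differed more than in Il33, Mx1 being centred at -1.32 and -0.65 with Rk1 and 1.16 and 0.81 untreated, while Il33 was at -1.58 and -1.44 with Rk1 and 1.49 and 1.53 untreated. A gene must be lower with Rk1 by a similar amount to come near Il33 in this measure, so the list says nothing beyond that likeness. Reads of Tagln may be shared with Sidt2, which overlaps it.

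**Figure D5:**
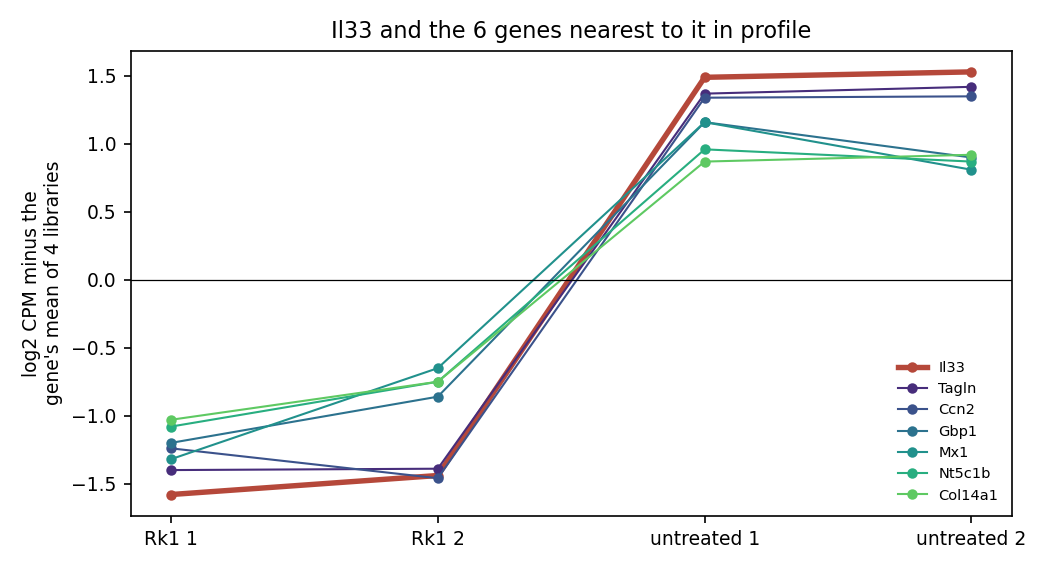
Log2 CPM minus the gene's mean over the 4 libraries, with the 2 Rk1 libraries on the left and the 2 untreated ones on the right, for Il33 (thick red line) and the 6 genes nearest to it. Tagln and Ccn2 run close to Il33, which lies at -1.58 and -1.44 with Rk1 and 1.49 and 1.53 untreated, and the other 4 show a smaller span.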

How the data were processed

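Gene-level raw counts for 4 RNA-seq libraries were deposited by the authors in 1 table, with exon lengths and Rnor_6.0 positions per the file headers. HISAT2 and HTSeq are named in the submitters' processing notes, whereas their versions, the strand setting and the handling of multi-mapped reads are not given in the sources used. Each library held 18008586 to 20430930 counts. Low counts were filtered with filterByExpr (minimum count 10, minimum total 15), libraries were scaled by TMM, and the 12316 genes left were tested with edgeR 4.0.16's quasi-likelihood test (R 4.3.3, 2 residual degrees of freedom, two-sided, Benjamini-Hochberg, threshold 0.05). The SE is the log2 fold change divided by the root of F. CPM use full library totals times the TMM factor, and log2 CPM for profiles a prior count of 2.

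Alternatives were DESeq2 1.42.0, limma-voom (limma 3.58.1), robust dispersions, other scalings and filters, a replicate block, and each library left out, where the lone library takes its spread from the other group. The steps were tested on simulated data. Members and lists were chosen with earlier results of these data known. Named were all members, family genes with a count, up to 6 called genes per list, the nearest genes to Il33 within 1 Mb, and the 6 most like it; further list genes and neighbours named as not passing, and Rnf149, were chosen after their values were seen. Within groups, chi-square divided by its degrees of freedom was 4.67 with Rk1 and 4.57 untreated, more than counting error alone gives. The libraries of a group were thus not a single library sequenced again. They could still be separate preparations from the same culture, which this value cannot tell. Promoter windows come from RefSeq tables on GRCr8, matched by symbol.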

Additional observations from a re-analysis of the deposited data

How the results depend on the processing

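Log2 fold changes spanned -3.11 to -2.98 for Il33, -1.68 to -1.27 for Il1rl1 and 0.30 to 0.39 for Il1r1 over 13 alternatives, with the extremes coming from leaving out 1 library. These genes were chosen on the same difference, so the ranges describe it and do not test it. Il18 ranged from -0.85 to -0.39 with a library left out and could not be fitted with the stricter filter. Il1rap ranged from -0.01 to 0.08 with a library left out, so it has no set direction. DESeq2 called 837 genes higher and 809 lower, where edgeR called 1422 higher and 1289 lower. With a library left out the counts were 824 to 1110 higher and 859 to 936 lower. In the MyD88 relay 3 to 4 rose with a library left out, 5 with robust dispersions and 5 with the replicate block, and 0 fell under any alternative. Of the processing and release genes 1 to 2 rose and 1 to 3 fell with a library left out, 1 rose and 0 fell by DESeq2, 4 fell with the stricter filter and 5 with the replicate block. Of the IL-1 response genes 3 to 5 fell with a library left out. Whether equal replicate numbers mark paired libraries is not in the labels. Replicate differences correlated at 0.06 across genes, and the replicate block gave 1676 genes higher and 1538 lower. The cause of these shifts was not tested. Depth limits Il1a, Il1b, Il18 and the low receptor chains.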
